A study of Mus musculus with 4 samples.

Results

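The Hoxd cluster of the mouse is a run of 9 homeobox genes, Hoxd13, Hoxd12, Hoxd11, Hoxd10, Hoxd9, Hoxd8, Hoxd4, Hoxd3 and Hoxd1, on chromosome 2 from 74668225 to 74765142 (mm10). The CTCF peaks described here are those whose summit, the base of highest signal, lay in that interval or within 800 kb on either side. They were taken by position alone and number 15 in the cluster, 21 in the flank on the Hoxd13 side (the centromeric flank, 73868225 to 74668224) and 14 in the flank on the Hoxd1 side (the telomeric flank, 74765143 to 75565142), out of 51871 peaks in the whole list. The peaks come from chromatin immunoprecipitation and sequencing of CTCF in whole testes of F1 mice that carry B6 and CAST chromosomes, with 2 immunoprecipitated (IP) samples and 2 input samples. Ages were not given in the sources used here. The testes were not sorted, so signal from germ cells and somatic cells cannot be told apart, and the list does not separate the B6 from the CAST allele. The values are those of a single merged list, so no spread between animals stands behind any of them, no test between samples could be made, and the read depth is unknown.

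CTCF is a zinc-finger protein that binds a long, oriented DNA motif and halts the loop-extruding cohesin ring, so that its sites often lie at the borders of chromatin domains. The Hoxd genes encode transcription factors that pattern the body axis, the limbs and the genitalia, and their order along the chromosome matches the order in which they are used. In the limb bud the cluster is known to sit between a centromeric regulatory domain, which acts on the genes of the Hoxd13 side in digits, and a telomeric domain, which acts on more central genes in the forearm, with CTCF sites inside the cluster between them. That arrangement is background from somatic tissue and was not measured here.

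Promoter sequences are shown for the pair of Hoxd genes whose promoter window held a CTCF summit, and for the antisense gene Hoxd3os1, whose promoter window was fully covered by one of the strongest peaks of the cluster. Each runs from 250 bases before to 50 after an annotated start, 5′ to 3′ on the gene's strand, from RefSeq (GRCm38.p6, which shares its chromosome coordinates with mm10). Capitals mark the 21 bases centred on the CTCF summit for Hoxd10 and Hoxd9, and a 12-base match to a loose form of the CTCF core motif for Hoxd3os1.
Hoxd10 promoter, chr2:74691641-74691940, plus strand: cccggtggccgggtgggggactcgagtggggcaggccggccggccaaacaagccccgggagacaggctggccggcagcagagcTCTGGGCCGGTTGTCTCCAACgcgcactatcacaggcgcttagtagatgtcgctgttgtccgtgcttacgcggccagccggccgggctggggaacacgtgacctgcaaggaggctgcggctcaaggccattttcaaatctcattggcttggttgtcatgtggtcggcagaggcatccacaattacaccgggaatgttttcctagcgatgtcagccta
Hoxd9 promoter, chr2:74697513-74697812, plus strand: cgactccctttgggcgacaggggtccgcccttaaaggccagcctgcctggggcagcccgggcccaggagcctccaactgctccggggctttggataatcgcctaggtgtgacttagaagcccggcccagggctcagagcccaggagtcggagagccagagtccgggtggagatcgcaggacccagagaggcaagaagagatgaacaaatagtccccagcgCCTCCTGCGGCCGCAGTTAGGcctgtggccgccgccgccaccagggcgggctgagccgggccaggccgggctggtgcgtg
Hoxd3os1 promoter, chr2:74716081-74716380, minus strand: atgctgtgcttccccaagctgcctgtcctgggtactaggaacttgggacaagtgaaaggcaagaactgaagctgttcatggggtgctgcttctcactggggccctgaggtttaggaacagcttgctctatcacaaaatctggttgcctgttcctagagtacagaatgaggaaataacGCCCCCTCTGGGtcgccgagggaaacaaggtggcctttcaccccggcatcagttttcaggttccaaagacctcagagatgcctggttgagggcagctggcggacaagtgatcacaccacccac

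CTCF peaks were dense in the Hoxd cluster. The 15 summits in 96.9 kb made 15.5 per 100 kb, against 2.01 per 100 kb over the autosomes and X. Among 26523 windows of the same length laid end to end along those chromosomes, 28 held at least 15 summits, or 0.106%, and the median window held 1. Windows centred on protein-coding genes were richer, and 136 of 21523 held at least 15 (0.632%), with a median of 3. Some cluster peaks lay close together. With summits within 1 kb counted as 1, the cluster held 11, and the windows were not recounted in that way. Much of the density came from weak peaks. The authors' fold enrichment, the ratio of signal over background at the summit, was 5 or more in 6 of the 15 cluster peaks (40%), against 71.9% of all peaks in the list. At least 6 summits of that strength were found in 4.05% of windows. Folds of 10 or more were listed for 2 of the 15, against 19.6% of the list. The median fold in the cluster was 3.60 (95% interval from order statistics 3.27 to 6.90, counting error only), against 6.82 in the whole list, where 9.04% of peaks were at or below 3.60.

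**Figure D1:**
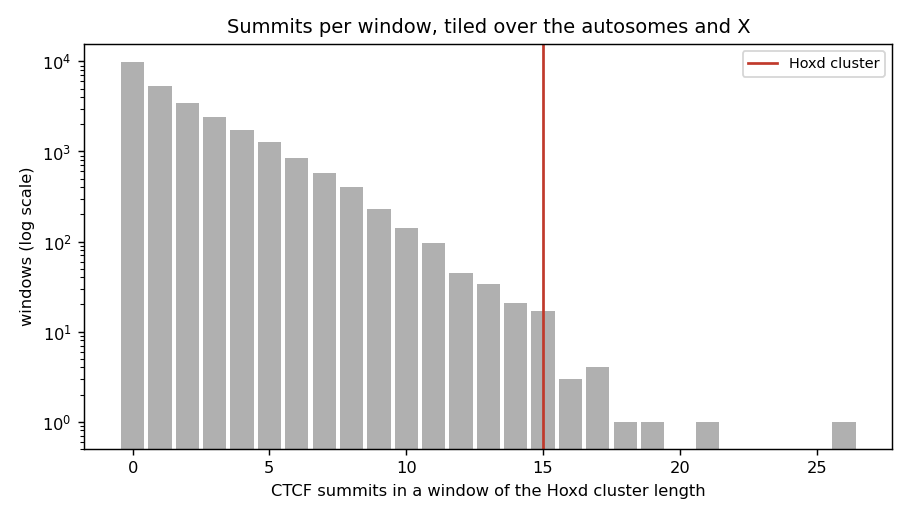
Number of windows of the Hoxd cluster length (vertical axis, log scale) by the number of CTCF summits each holds (horizontal axis), with windows laid end to end over the autosomes and X. The line marks the 15 summits of the Hoxd cluster, a count reached or passed by 28 of 26523 windows.

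At the Hoxd13 end, Hoxd13 and Hoxd12, which act in digits and external genitalia, had no summit inside them. The same held for Hoxd4 and Hoxd1. Hoxd13 (74668225 to 74671603) and Hoxd12 (74675013 to 74677705) were separated by a single summit at 74673197, of fold 8.16 and −log10 q 48.5 (q is the authors' p-value adjusted for multiple testing). It lay 1.59 kb beyond the 3′ end of Hoxd13 and 1.82 kb before the start of Hoxd12. The promoter windows of both genes overlapped no peak. Hoxd11 (74679558 to 74687016), which acts in the forearm together with its Hoxa paralog, had its only summit at 74686488, 528 bp inside its 3′ end. Its fold of 10.2 (−log10 q 58.1) was the next to highest of the cluster, and it also lies within the span annotated for Hoxd10 (74684273 to 74695106), so the list does not assign it to either gene.

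The highest fold of the cluster, 10.4 with a −log10 q of 54.3, was at 74694231, 875 bp inside the 3′ end of Hoxd10. A pair of weaker summits lay upstream of it in the same gene. That at 74691734, with a fold of 3.84, stood 157 bp before the start of Hoxd10 and inside the promoter window shown above. That at 74692723, with a fold of 3.27, stood 832 bp after the start. Hoxd9 (74697763 to 74700208) had a summit 20 bp before its start, at 74697743, of fold 5.87 and −log10 q 17.3. This was the strongest summit at the start of any Hoxd gene. Around it were 4 weak summits, 1.00 kb before the start (fold 2.67), within the gene (folds 2.55 and 3.29) and 1.03 kb past its 3′ end (fold 2.69). A stronger one followed between Hoxd9 and Hoxd8, at 74702378, of fold 6.08 and −log10 q 53.7. Hoxd8 (74704615 to 74707933) had a summit of fold 3.30 at 74704845, 230 bp after its start.

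From the summit in Hoxd11 to that in Hoxd8, 11 summits fell in 18.4 kb, 4 of them with a fold of at least 5. The peaks covered 61.7% of that stretch. In the whole cluster the peaks covered 16.4 kb, or 16.9%, against 1.30% of the autosomes and X. The median distance between neighbouring summits was 1.85 kb in the cluster, against 18.1 kb over the autosomes and X, and 4 of the 14 neighbouring pairs were less than 1 kb apart, against 1.91% of 51610 pairs over those chromosomes.

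The Hoxd1 end, whose genes act in the hindbrain, the neck and, for Hoxd1 in the mouse, in pain-sensing neurons, carried few peaks beside the rest of the cluster. Hoxd3 is annotated from 74711993 to 74748271, a span that takes in all of Hoxd4, the gene of the microRNA Mir10b and most of the antisense gene Hoxd3os1. Within it a summit of fold 3.47 at 74714673 was followed by a stronger one at 74715909, of fold 6.90 and −log10 q 58.6, the highest −log10 q of the cluster. This stronger summit lay 221 bp inside Hoxd3os1 from its start, and 6.07 kb before Hoxd4 (74721978 to 74729160). Then no summit was listed for 32.4 kb. From the start of Hoxd4 to the far end of Hoxd1 (74762980 to 74765142), 43.2 kb held 1 summit, at 74748261, with a fold of 3.60. It lay 10 bp from the 3′ end of Hoxd3 and 161 bp from an end of the long noncoding RNA gene Haglr. That count is not low for the genome, where the median window of 96.9 kb also held 1 summit. Hoxd1 had no summit nearer to its start than 14.7 kb, and Mir10b none nearer than 10.2 kb.

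**Figure D2:**
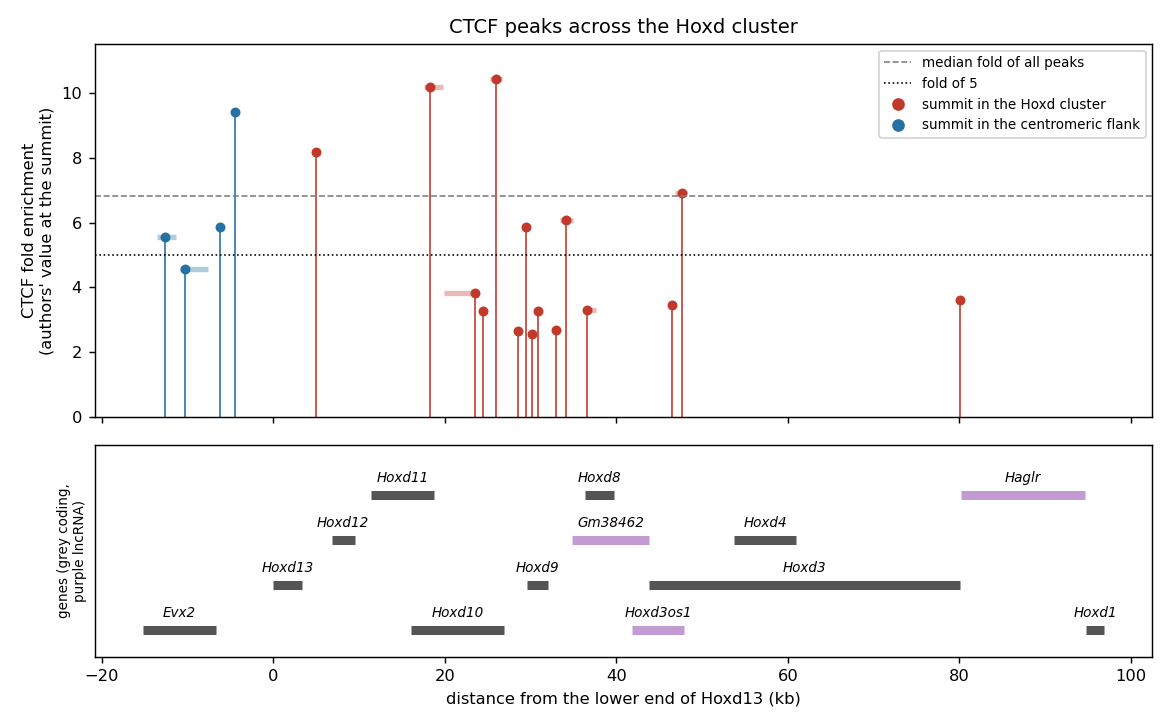
CTCF fold enrichment at each summit (vertical axis) by distance from the lower end of Hoxd13 in kb (horizontal axis), with pale bars for the extent of each peak and annotated genes drawn below. The summits crowd between Hoxd11 and Hoxd8, and 1 summit of fold 3.60 lies between Hoxd4 and Hoxd1.

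Split at a fold of 5, the summits of the cluster were also apart in −log10 q. Over the list −log10 q rose with fold, so this was not a separate difference. The 6 summits with a fold of at least 5 ran from 5.87 to 10.4, with a −log10 q from 17.3 to 58.6, and 5 of them were at or above the list's median of 29.5. The other 9 ran from 2.55 to 3.84, with a −log10 q from 1.48 to 12.2, and none was at or above that median. The lowest value in the whole list was 1.31, so the weakest of these lay close to the authors' limit. Peaks of the cluster were also wide. Their median width was 908 bp, against 529 bp in the list, and 6 of 15 were wider than 1 kb (40%), against 16.6% of the list. This was not particular to Hoxd, since the share wider than 1 kb was 35.3% in Hoxa, 43.75% in Hoxb and 30% in Hoxc. Median widths there were 804, 865.5 and 519 bp. The widest, 3946 bp (99.97th percentile of width), ran from 74688169 to 74692114 across the Hoxd10 promoter, with its summit at 90.3% of its length. Its fold was only 3.84. The peak at the 3′ end of Hoxd11 was 2226 bp wide.

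Several of the wide peaks had a high −log10 q for their fold. For the summit at 74715909 in Hoxd3os1, 87.7% of the 8163 listed peaks with a fold within 10% of its own had a lower −log10 q. For the summit between Hoxd9 and Hoxd8 this share was 88.5% of 7534 peaks, for that at the Hoxd10 start 92.4% of 5663, and for that in Hoxd8 90.3% of 3222. The highest folds of the cluster, in Hoxd10 and Hoxd11, lay nearer the middle, at 55.0% and 62.7%. Fold and −log10 q thus rank the sites of the cluster differently, with Hoxd10 first by fold and Hoxd3os1 first by −log10 q.

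**Figure D3:**
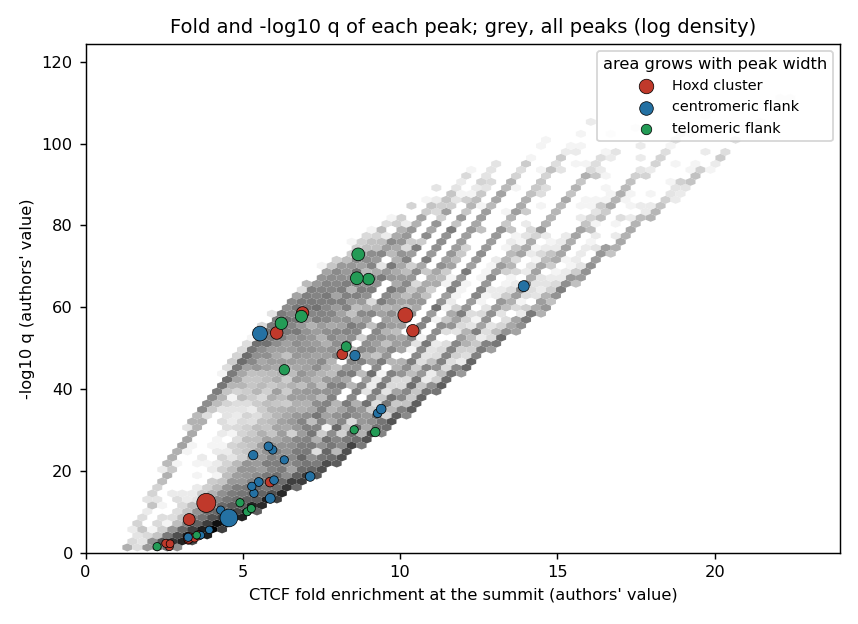
The authors' −log10 q (vertical axis) against fold enrichment (horizontal axis) for each peak of the Hoxd cluster and its flanks, over the density of all 51871 peaks in grey (log scale of density); symbol area grows with peak width. The cluster's peaks form a weak group under a fold of 4 and a strong group from 5.87 to 10.4.

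Of the 9 Hoxd genes, 5 had a summit within 1 kb of either annotated end, against 39.1% of protein-coding genes. They were Hoxd11, Hoxd10, Hoxd9, Hoxd8 and Hoxd3. In the other Hox clusters the count was 6 of 11 genes for Hoxa, 3 of 10 for Hoxb and 3 of 9 for Hoxc. The strand, read from the promoter table, separates starts from 3′ ends. Within 1 kb of a start, 3 of the 9 genes had a summit (Hoxd10, Hoxd9 and Hoxd8), against 37.1% of 17274 protein-coding genes with a listed start. Within 1 kb of the 3′ end, 3 had one (Hoxd11, Hoxd10 and Hoxd3), against 8.79%. The shares for all genes come from chromosomes with 2.01 summits per 100 kb, against 15.5 in the cluster. Whether the counts exceed what that density alone would give was not tested. The Hoxd11 and Hoxd10 summits lay 528 and 875 bp from the 3′ end, so a 500 bp window would keep only Hoxd3. The summits at starts had folds of 3.84, 5.87 and 3.30, and those at 3′ ends had folds of 10.2, 10.4 and 3.60. Distances from the start to the nearest summit in the other genes were 1.82 kb for Hoxd12, 2.68 kb for Hoxd3, 4.17 kb for Hoxd11, 4.47 kb for Hoxd13, 6.07 kb for Hoxd4 and 14.7 kb for Hoxd1. Neighbouring genes share summits, so the 9 genes are not independent and no test was made.

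The core of the CTCF motif was searched on both strands of the promoter windows in a strict form (CCA, any 2 bases, AG, any 2 bases, GGC) and in a loose form with any base in place of the A after CC. The strict core was in none of the 10 windows of the 9 Hoxd genes, against 2.44% of 32619 windows in the table. The loose core was in 2 of the 10, for Hoxd11 and Hoxd3, against 8.67% of all windows and 23.4% of the 4278 windows that hold a summit. Both matches lay over 2.5 kb from any summit. The windows of Hoxd10 and Hoxd9, which hold a summit, contained neither form. The match in the Hoxd3os1 window, at 74716192 to 74716203, lay inside the peak and 289 bp from its summit, and reads as the motif on the plus strand of the chromosome. A match describes letters only, and the sequence under the other summits of the cluster was not used here. The 10 Hoxd windows ranged from 39.7% G and C for Hoxd4 to 74.3% for Hoxd13. The windows of Hoxd10 and Hoxd9 had 62.7% and 68.3%, and those at both ends of the range, Hoxd4 and Hoxd13, overlapped no peak.

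The dense binding did not end at the border of the cluster on the Hoxd13 side. The first summit beyond it, at 74663753, lay 4.47 kb away and had a fold of 9.40. It was the last of 4 summits in 8.20 kb around Evx2 (74652989 to 74661520), a homeobox gene transcribed away from Hoxd13. The others had folds of 5.87 at 74661999, 479 bp from the upper end of Evx2, 4.56 at 74657944 and 5.55 at 74655555. The peaks of the last pair were 3370 and 2205 bp wide, and for the summit at 74655555 96.3% of peaks of similar fold had a lower −log10 q than its 53.6. Counted from there to Hoxd3os1, 18 summits lay in 60.4 kb, 9 of them with a fold of at least 5. A further summit of fold 9.29 stood at 74635632, 32.6 kb from the border.

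The rest of the centromeric flank was sparse until its outer end. Its 21 summits made 2.63 per 100 kb, and 30.3% of windows of that length over the autosomes and X held at least as many. Of the 21, 16 had a fold of 5 or more (76.2%, against the 71.9% of the list), and 1 had a fold of 10 or more (against 19.6%). The median fold was 5.55 (interval 5.14 to 6.32), against 6.82 in the list. Counted outward from the cluster in steps of 200 kb, there were 6, 3, 1 and 11 summits. The flank's coding genes apart from Evx2 each had a summit near an annotated start. The summit of Lnpk, which encodes a protein of the endoplasmic reticulum, was 33 bp from it (fold 5.82). The summit of Atp5g3, which encodes a subunit of mitochondrial ATP synthase, was 36 bp away (fold 3.26). The summit of Atf2, which encodes a stress-response transcription factor and overlaps the edge of the flank, was 5 bp away (fold 7.14). The highest fold of the whole region, 13.9 with a −log10 q of 65.2, lay outside coding genes at 73965801. It was inside the long noncoding RNA gene Gm38603, 702 kb from the cluster and 53.3 kb from Atp5g3. Within the centromeric flank, the next highest folds were 9.40 and 9.29 near Evx2, 8.57 at 74300439 and 7.14 at Atf2. Between the summits at the starts of Lnpk and Atp5g3 lay gaps of 181, 156 and 117 kb without a listed summit, the last of which takes in the body of Lnpk.

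On the Hoxd1 side the cluster was followed by a long stretch with little CTCF. The first summit beyond the border was 60.9 kb away, at 74826036, 224 bp inside Mtx2, which encodes a protein of mitochondrial import. Its fold of 2.28 and −log10 q of 1.51 were the lowest fold and nearly the lowest −log10 q of the 50 peaks. The next, of fold 5.14 at 74933421, was 168 kb from the border. Such sparseness is not rare in the genome. The median window of 96.9 kb held 1 summit, and 10.9% of all gaps between neighbouring summits were over 100 kb. Among summits with a fold of at least 5, none was listed for 218 kb between Hoxd3os1 and the summit at 74933421. The longest such gap of the region, 273 kb, lay in the centromeric flank between 74305964 and Lnpk, and 4.27% of the 37164 gaps between such summits over the autosomes and X were at least as long. The median of those gaps was 25.5 kb.

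Farther out, the telomeric flank carried most of its sites away from coding genes. Its 14 summits made 1.75 per 100 kb, a number reached by 46.5% of windows of that length. Of these, 11 had a fold of at least 5 (78.6%, against 71.9% of the list) and none reached 10 (against 19.6%). The median fold was 6.59 (interval 4.91 to 8.67), against 6.82 in the list. A run of 7 summits in 188 kb, from 74964558 to 75152718, had folds from 6.23 to 8.998. The highest −log10 q of the region, 72.9, was at the first of them, where 97.7% of peaks of similar fold had a lower value. A summit of fold 6.86 at 75138116 lay inside the long noncoding RNA gene 2600014E21Rik, 461 bp after its start. It was 141 bp before a start of Gm13652, a long noncoding RNA gene on the other strand. A close pair at 75151191 and 75152718, 1.53 kb apart, had folds of 8.998 and 8.63 inside 2600014E21Rik. The other high folds of the flank were 9.21 at 75318408, 8.67 at 74964558 and 8.54 at 75111988. The flank ended with a gap of 245 kb before a summit of fold 5.27 inside Gm50595 at 75563762. The nearest summit to a listed start of Gm50595, 148 bp away with a fold of 3.58, lay beyond the flank. Gaps over 100 kb numbered 2 of 13 in this flank and 3 of 20 in the centromeric flank, against 10.9% of all gaps between neighbouring summits.

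**Figure D4:**
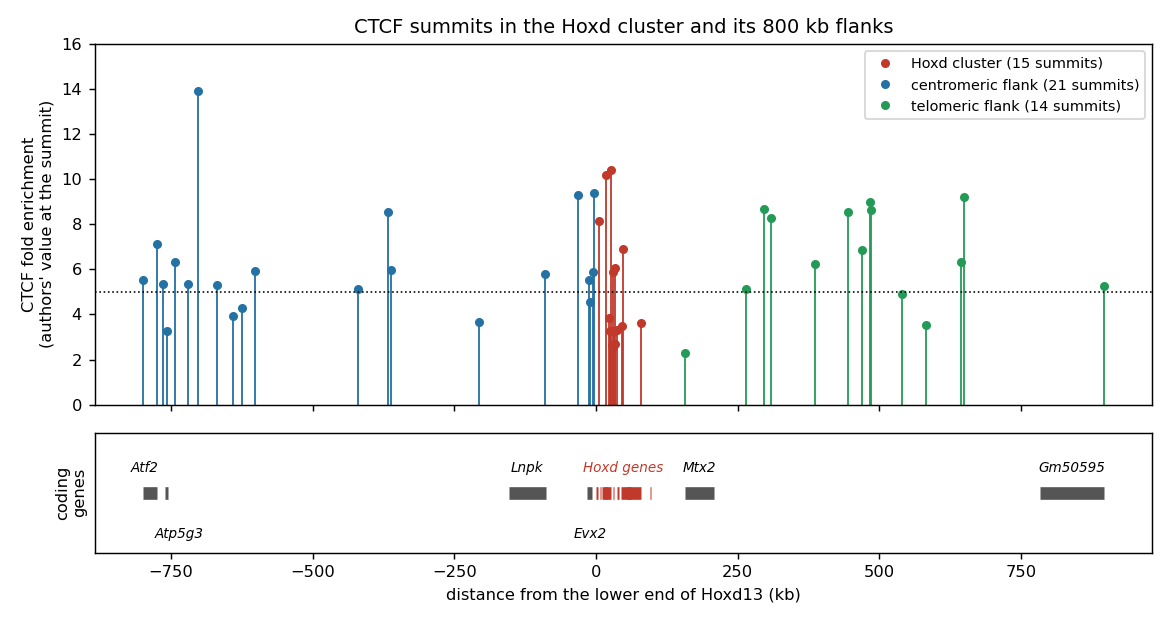
CTCF fold enrichment at each summit (vertical axis) across the Hoxd cluster and its 800 kb flanks, by distance from the lower end of Hoxd13 in kb (horizontal axis), with coding genes below, those that cross a flank's edge drawn to near that edge. Summits of fold 5 or more are listed on both sides of Hoxd13. On the Hoxd1 side, the first such summit beyond that in Hoxd3os1 lies 218 kb from it.

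Set beside the other Hox clusters, Hoxd was nearest to Hoxa in density and to Hoxc in median fold. Hoxd had 15.5 summits per 100 kb, against 16.1 in Hoxa, 9.20 in Hoxb and 8.64 in Hoxc. The median fold was 3.60 in Hoxd, against 4.76 in Hoxa, 6.25 in Hoxb and 3.70 in Hoxc. The intervals of all 4 overlapped. They take peaks of 1 list as independent draws, so their overlap is no test of a difference between clusters. Folds of at least 5 were listed for 40% of the peaks of Hoxd, 41.2% of Hoxa, 56.25% of Hoxb and 40% of Hoxc. Peaks covered 16.9% of Hoxd, against 15.01% of Hoxa, 8.56% of Hoxb and 6.87% of Hoxc. The longest gap between summits within the cluster was 32.4 kb in Hoxd, against 9.79 kb in Hoxa, 30.4 kb in Hoxb and 20.4 kb in Hoxc. Each cluster was also divided at the 3′ end of its group 9 gene. From Hoxd13 to Hoxd9 there were 2.81 summits per 10 kb, against 0.924 from there to Hoxd1. In Hoxa the values on the group 13 side and on the other side were 2.12 and 1.33, in Hoxc 1.11 and 0.572, and in Hoxb, where the group 13 gene lies far from the rest, 0.729 and 1.09. Each cluster is a single interval, so these differences were not tested.

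Genes that act with or upon the Hox genes were looked at as a list, chosen with earlier results of these data known. It held Hox cofactors such as Pbx and Meis proteins, the related homeobox genes Evx and Cdx, Polycomb and Trithorax genes that silence or keep active the Hox clusters, and a few other regulators. Of the 34 genes, 21 had a summit within 1 kb of an annotated end (61.8%, Clopper-Pearson 95% interval 43.6 to 77.8), against the 39.1% of protein-coding genes. The list was not drawn at random, and Evx2 of the centromeric flank is among the 21. The interval is therefore no test of the difference, which was not tested. The highest folds were 12.955 at Pbx2 and 10.2 at Pknox2, which encode cofactors that bind DNA with Hox proteins. The folds of the 21 genes ran from 2.82 to 12.955 with a median of 5.87.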

How the data were processed

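CTCF was profiled in whole testis (2 IP and 2 input samples, grouped by their titles), and 1 merged peak list was used. Per the submitters' processing notes, BWA 0.7.12, MACS2 2.2.7 and mm10 were used, in roles that are not stated. Peak names in the deposited list include both bio2 and merged, so which IP samples entered it is not settled. For each peak the authors deposited a fold enrichment (a ratio), p and q as −log10 values, and a score. The score tracked the −log10 q (10 times its value, to within 1, in 100% of peaks). Neither it nor the p was used. All values are the authors' own and serve only to describe, rank or filter peaks within the list.

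Summits were placed 1-based as peak start plus offset. Genes came from a RefSeq table of GRCm38.p6 and starts from its promoter table, with all 9 Hoxd genes matched in each. Genes with a start below 3 Mb were left out as likely scaffold coordinates. Windows began at 3 Mb. Intervals are exact binomial (Clopper-Pearson, 95%) for shares and binomial order statistics for medians, and cover counting error only. Counting code was tested on simulated summits. Python 3.11.15, numpy, pandas and scipy were used.

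The region, gene lists and stretches were chosen with earlier results of these data known. Named were all 9 Hoxd genes, the coding genes of the flanks, every cluster summit, the 5 highest and the first summit of each flank, and the 3 listed cofactors or regulators of highest fold, of which 1 is not reported here. The runs of neighbouring summits, the peaks compared at similar fold (within 10%) and the other single peaks named were picked after their values were seen. Alternatives were stricter peak sets, other windows, flank lengths, backgrounds and a looser motif. The motif was sought only in promoters, since no genome sequence was used. Depth and the sampling error between animals cannot be given.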

Additional observations from a re-analysis of the deposited data

How the results depend on the processing

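Of 29 alternatives, 19 stayed within 1.5 times the count or within the interval of the value, and 10 moved it. The cluster count of 15 became 11 with summits within 1 kb counted as 1, a change within that limit. It became 6 with a fold of at least 5 and 5 with −log10 q at or above the list's median. That last choice left 5 of 21 in the centromeric flank and 9 of 14 in the telomeric flank, which turned the order of the flanks round. Flanks of 0.5 times the length, scaled to 800 kb, held 18 summits each. Those of 1.5 times the length, scaled likewise, held 22 on the centromeric side and 20.7 on the telomeric side. The difference of 21 against 14 summits between the flanks thus depended on their length. The percentile of the cluster's median in the list was 9.04 by fold and 18.7 by −log10 q, within the interval of the median but 2 times as high. The median fold in the cluster became 7.53 among peaks of fold at least 5, by construction. The 5 Hoxd genes with a gene-end summit became 3 with a 500 bp window, 3 with a fold of at least 5, and 3 when only annotated starts were used, an alternative added after the data were seen. The 0.106% of windows as dense as the cluster became 0.632% for gene-centred windows. Hoxd promoter windows with the motif core numbered 0 with the strict form and 2 with the loose form. No paired analysis was possible because the list carries no value per sample, and no replicate could be left out for the same reason. The number of weak sites below detection is unknown, since no depth was given.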
